A study of Homo sapiens with 12 samples.

Results

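The respiratory chain is built from 2 genomes, and this account compares the transcripts of its nuclear genes with those of the mitochondrial genome in HepG2 cells, a human liver cancer cell line. Members were the rows of the count table whose symbols begin with NDUFA, NDUFB, NDUFC, NDUFS or NDUFV, UQCR, COX4 to COX8 or ATP5, the rows SDHA to SDHD, and the rows whose symbols begin with MT-. Nuclear rows with a pseudogene symbol, ending in P and a number, were left out, which removed 5 rows. MT-ATP6 and MT-ATP8 also end in these letters but are genes, and were kept. In all, 119 of 16389 rows were members, 89 of them nuclear and 30 mitochondrial. The nuclear rows held 37 complex I subunits, 7 complex I assembly factors, 4 subunits of complex II, 8 of complex III, 11 of complex IV and 17 rows of complex V, together with 3 restricted isoforms or paralogues and 2 antisense RNAs. ATP5S and ATP5SL stand among the complex V rows by symbol and are not structural subunits of the enzyme. The mitochondrial rows were 13 mRNAs, 2 rRNAs and 15 of the 22 annotated tRNAs. The other 7 tRNAs were not analysed here.

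The chain passes electrons from NADH and succinate through complexes I and II to ubiquinone, then through complex III and cytochrome c to oxygen at complex IV, and the proton gradient so formed drives ATP synthesis by complex V. The nucleus encodes most subunits and every subunit of complex II, each as its own transcription unit. The mitochondrial genome encodes the core hydrophobic subunits, and is transcribed as long polycistronic RNAs from its heavy and light strands. The tRNAs lie between the mRNAs and rRNAs like punctuation, and cutting them out releases the RNAs on either side.

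All 12 libraries came from HepG2 cells and were poly(A)-selected, and each group held 3. LG cells were kept in 5.5 mM glucose and HG cells in 20 mM glucose for 48 h. LGV and HGV cells received the same media and then 1 mM VPA (valproic acid, an anticonvulsant that also inhibits histone deacetylases) for 12 h more. Whether the cells without VPA were collected before or after those 12 h is not stated in the sources used here. The replicates are described only as a triplicate of 1 cell line, so p-values measure the spread between these samples, which may be technical. Libraries held 29798442 to 45572694 counted reads, so that 3 reads corresponded to 0.0658 to 0.101 CPM (reads per 1000000 counted reads). All 8 hepatocyte markers examined were present, with ALB at a mean of 25290 CPM in LG. Of 8 markers of other cell types, 6 had no row in the table, and the rows of COL1A1 and VWF summed to at most 5.09 CPM in any library. HGV replicate 2 stood apart for the mitochondrial rRNAs and light-strand tRNAs, and where its removal moved a called value given here by more than 1.5 times, the value without it is also given. In bulk RNA, fewer mitochondrial genomes per cell and less RNA from each cannot be told apart.

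The mitochondrial tRNAs carried the largest differences between the glucose media, and 3 are shown because they lie at the extremes. Positions are on the mitochondrial chromosome of GRCh37, which has 16569 bases, and sequences are 5′ to 3′ on the strand of the gene. The capitals mark the bases that a gene shares with its neighbour. MT-TI, the isoleucine tRNA, lies at chrM:4263-4331 on the plus strand, and its last 3 bases are also covered by MT-TQ on the other strand. MT-TC and MT-TY, the cysteine and tyrosine tRNAs, lie next to each other on the minus strand at chrM:5761-5826 and chrM:5826-5891 and share 1 base.
MT-TI: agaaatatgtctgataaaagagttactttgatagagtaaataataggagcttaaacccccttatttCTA
MT-TC: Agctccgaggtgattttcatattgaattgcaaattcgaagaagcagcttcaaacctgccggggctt
MT-TY: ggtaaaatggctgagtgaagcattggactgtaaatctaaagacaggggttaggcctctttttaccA
These genes are 69, 66 and 66 bases long, and reads were 50 nt, so that a read on a tRNA row may come from a tRNA or from an uncut precursor that runs through it. These sources cannot be told apart. The library kit kept strand, but the strand setting of the counting is not given in the sources used here, so that reads of a tRNA and of the RNA antisense to it cannot be told apart either.

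Per length, the mitochondrial mRNAs stood far above the nuclear rows in every group. In LG the median of the 13 mitochondrial mRNAs was 3519 CPM per kb of exon, from 1895 for MT-ATP8 to 7695 for MT-CO2. The 89 nuclear rows had a median of 19.6 CPM per kb in LG, and ATP5B, the catalytic beta subunit of complex V, was highest at 441 CPM per kb. Lengths were those of all annotated exons of a gene combined, which lowers the values of nuclear genes with many alternative exons. Some mitochondrial mRNAs overlap each other or can share reads with nuclear copies, as given below, so that their order by level is uncertain.

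As a share of all counted reads, the mitochondrial mRNAs differed between LG and HG and the nuclear rows did not separate. The mitochondrial mRNAs took 4.12%, 4.28% and 4.41% of reads in LG replicates 1 to 3, and 5.12%, 5.19% and 5.32% in HG. All 3 HG libraries thus lay above all 3 LG libraries. The nuclear rows took 0.788% ± 0.0228 (SD, n = 3) of reads in LG and 0.791% ± 0.0534 in HG, and the groups overlapped. The ratio of mitochondrial mRNA to nuclear reads, which does not depend on scaling between libraries, was 5.42 ± 0.0276 (SD, n = 3) in LG and 6.60 ± 0.339 in HG, with no overlap. With 3 libraries against 3 an exact permutation test cannot go below 0.1, so no test is given for these ratios. With VPA the ratio spread widely, at 6.23 ± 0.549 in LGV and 6.47 ± 0.809 in HGV, and these groups overlapped. Every LGV library, the lowest at 5.65, lay above every LG library, the highest at 5.44, whereas HGV and HG overlapped. The nuclear share was 0.758% ± 0.00725 in LGV, with all 3 libraries just below those of LG. HGV replicate 2 had both the lowest ratio of its group, 5.59, and the highest nuclear share, 0.896%.

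**Figure D1:**
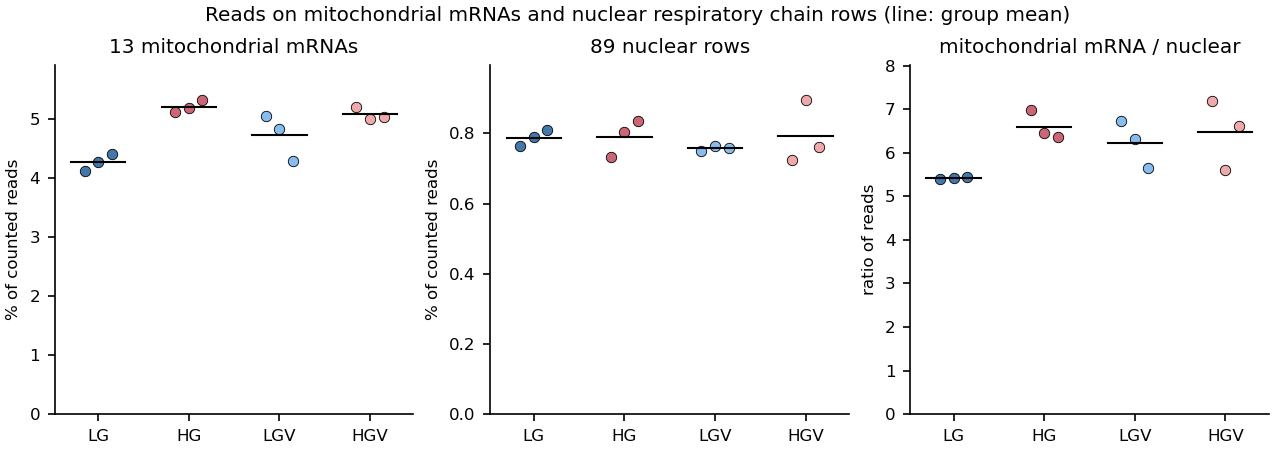
Reads on the 13 mitochondrial mRNAs and on the 89 nuclear rows as a percentage of all counted reads, and their ratio, in each of the 12 libraries (points; lines are group means). The HG mitochondrial share lies above LG in every library (5.12% to 5.32% against 4.12% to 4.41%), while the nuclear shares of LG and HG overlap.

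The first comparison asked how the chain's transcripts differed between high and low glucose without VPA, and it was led by mitochondrial tRNAs. Of the 30 mitochondrial rows, 12 (40%) passed the test, 6 higher and 6 lower in HG. Of the 88 nuclear rows tested, 5 (5.68%) passed, all lower. Over all 15452 genes tested, 24.7% passed, 12% higher and 12.7% lower. The nuclear share lay below that of genes at large, and the mitochondrial share lay above it through the tRNAs. Of the tRNAs 8 of 15 passed (53.3%), beside 3 of 13 mitochondrial mRNAs (23.1%) and 1 of 2 rRNAs. Median log2 fold changes were -0.04 for the nuclear rows and 0.17 for the mitochondrial rows, against 0.01 for all genes. The test was edgeR's quasi-likelihood test on all genes with Benjamini-Hochberg adjustment at 0.05, here and below.

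MT-TI fell most. It had 9.39, 12.7 and 4.16 CPM in LG replicates 1 to 3, against 0.729, 1.32 and 1.18 CPM in HG. The corresponding raw counts were 251, 509 and 163 reads in LG and 23, 44 and 42 in HG, so that the lowest LG library, replicate 3, still lay far above every HG library. The log2 fold change was -2.99 (SE 0.338, edgeR adjusted p = 6.13e-06). The leucine tRNA MT-TL1, at 29.8, 36.8 and 19.9 CPM in LG and 7.39, 9.48 and 9.66 CPM in HG, also did not overlap and changed by -1.68 (SE 0.201, edgeR adjusted p = 1.15e-05). MT-TL1 is the most abundant of the heavy-strand tRNA rows and follows MT-RNR2 in the genome. The remaining calls on this strand were MT-TF (phenylalanine, log2 fold change -2.21), MT-TM (methionine, -2.25), MT-TD (aspartate, -1.81) and MT-TV (valine, -1.33), with levels from 0.269 to 4.74 CPM. Groups did not overlap in these rows, which the test picked from the same libraries.

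All 6 tRNAs that fell are heavy-strand genes and lie between chrM:577 and chrM:7585. The other 5 heavy-strand tRNA rows did not pass, among them MT-TW, which sits inside that stretch and had 16 to 74 reads in the LG and HG libraries. On the light strand 2 of the 4 tRNA rows passed, in the opposite direction. MT-TC rose by 1.22 (SE 0.245, edgeR adjusted p = 0.0016) and MT-TY by 1.15 (SE 0.203, edgeR adjusted p = 0.000519) on the log2 scale. MT-TE and MT-TP, the other light-strand tRNA rows, did not pass. MT-TY had 27.6, 28.5 and 54.8 CPM in LG and 72.7, 76.3 and 94.5 CPM in HG. MT-TC had 7.26, 10.5 and 19.6 CPM in LG and 26.8, 26.1 and 33.2 CPM in HG. LG replicate 3 was the high one of its group for both, and its removal gave 1.71 for MT-TC and 1.56 for MT-TY. The ratio of MT-TC to MT-TY reads was similar in all groups, with means from 0.33 to 0.386.

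The tRNA reads were also set against those of mitochondrial mRNAs and rRNAs in the same library, a ratio that needs no scaling between libraries. MT-TI reads per 10000 reads of MT-ND1, the complex I mRNA that precedes it, were 25.4 ± 11.2 (SD, n = 3) in LG and 3.86 ± 0.848 in HG. Per 10000 reads of MT-RNR2, MT-TL1 reads were 16.7 ± 4.54 in LG and 3.95 ± 0.522 in HG, and per 10000 reads of MT-ND1, on its other side, 84.8 ± 19.5 and 32.0 ± 2.56. MT-TF per 10000 reads of the adjacent MT-RNR1 was 17.1 ± 4.40 in LG and 3.73 ± 2.22 in HG. On the light strand, MT-TY reads per 10000 reads of MT-CO1 were 38.8 ± 17.9 in LG and 68.5 ± 5.38 in HG. In each of these ratios the LG and HG libraries did not overlap, and the MT-TY ratios came closest, with 59.5 in the highest LG library and 65.1 in the lowest HG library.

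**Figure D2:**
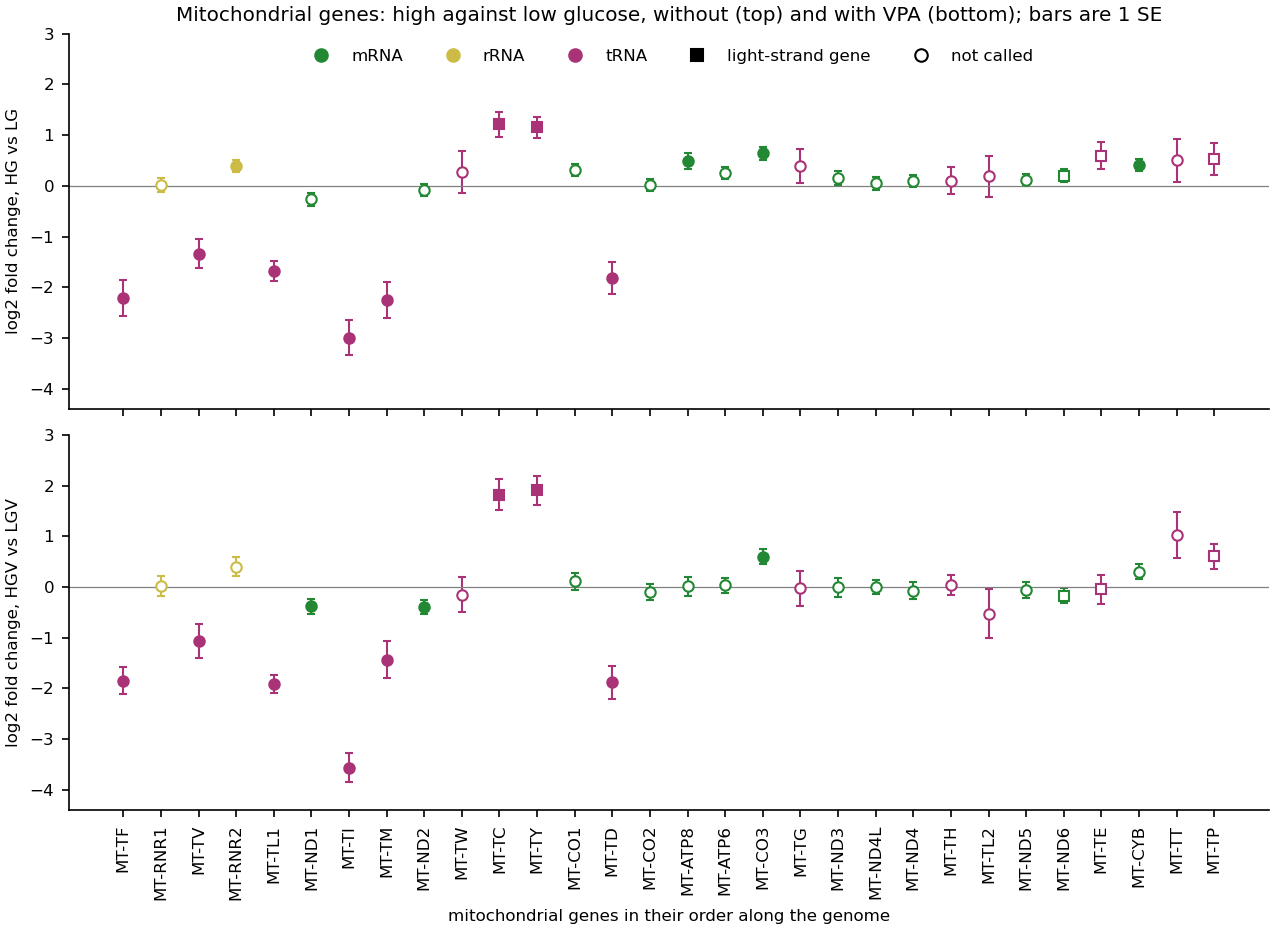
Log2 fold changes (y axis, bars 1 SE) of the 30 mitochondrial rows in genome order (x axis) for high against low glucose without VPA (top) and with VPA (bottom). MT-TI is the lowest point in both panels (-2.99 and -3.57), and the light-strand neighbours MT-TC and MT-TY are higher in both.

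The mitochondrial mRNAs differed less, and not all in the same way. MT-CO3, a core subunit of complex IV, had 2980, 3121 and 3396 CPM in LG and 4584, 4687 and 5298 CPM in HG. The groups did not overlap, and MT-CO3 rose by 0.64 on the log2 scale (SE 0.124, edgeR adjusted p = 0.00116). MT-CYB, the cytochrome b of complex III, rose by 0.41, and MT-ATP8 of complex V by 0.50, although the MT-ATP8 libraries overlapped. MT-ATP8 and MT-CO3 each overlap MT-ATP6 in the genome, so that reads in the shared bases are uncertain. The ratio of MT-CO3 to MT-ATP6 reads was 1.04 ± 0.105 (SD, n = 3) in LG and 1.35 ± 0.0996 in HG, and that of MT-CYB to MT-ND1 0.835 ± 0.0746 and 1.33 ± 0.126, without overlap in either. Among the rRNAs, MT-RNR2 (the large subunit) rose by 0.39 (SE 0.125, edgeR adjusted p = 0.0292), with 15730, 18790 and 17460 CPM in LG and 22050, 22560 and 22480 in HG. MT-RNR1 (the small subunit) gave 0.01 and MT-CO2 0.02 and neither passed, as was the case for MT-ND6 (0.20), which is the only mRNA on the light strand. Poly(A) selection recovers rRNA and tRNA only in part, so that these rows do not measure their total amounts. The calls of MT-CYB and MT-ATP8 were lost without LG replicate 1, HG replicate 2 or HG replicate 3, and that of MT-RNR2 without LG replicate 1 or any 1 of the HG libraries.

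Near-identical nuclear copies of mitochondrial genes can share reads with them. The copy MTATP6P1 kept to 0.116 to 0.121 of MT-ATP6 in the group means, whereas the copy MTND5P1 had 3, 6 and 5 reads in LG and 27, 18 and 18 in HG, with means of 0.13 CPM and 0.633 CPM. Of 10 such copies tested, 2 (20%) were called, both higher, beside the 24.7% of all genes. Both of these, MTND5P1 and MTRNR2L4, passed the filter on low counts only through the HG libraries, so that their calls are no support for a difference.

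**Figure D3:**
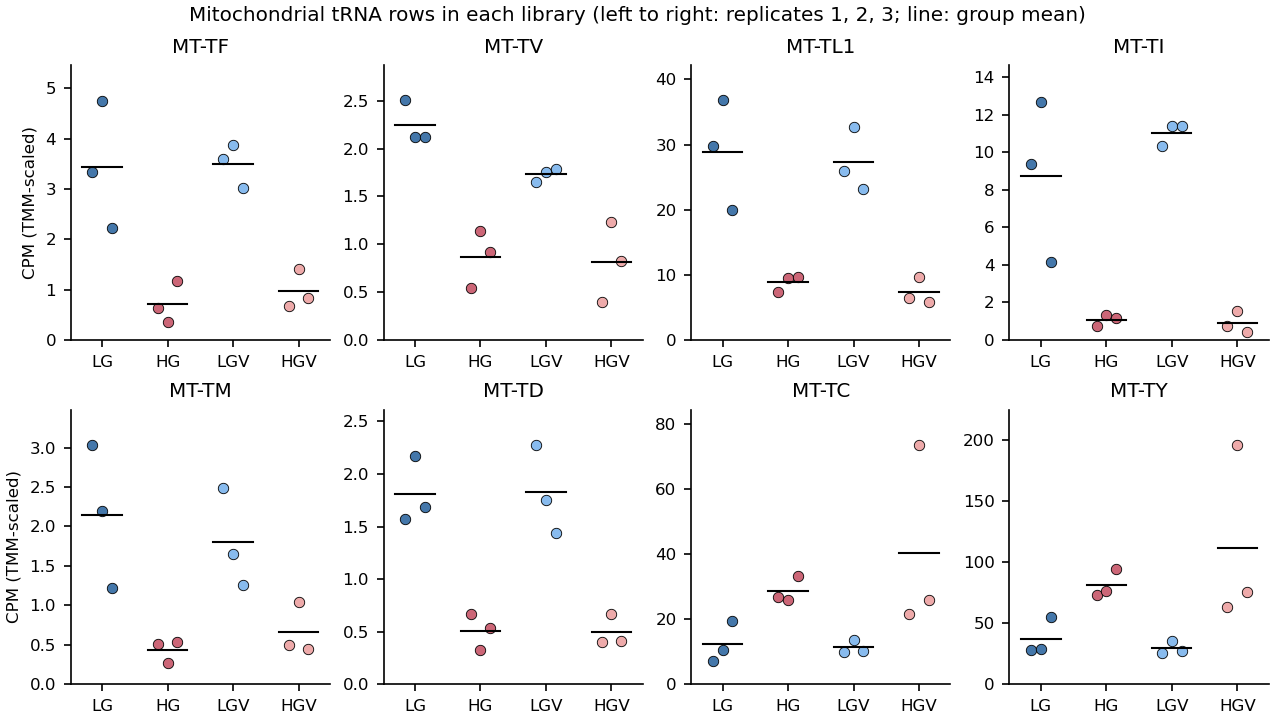
CPM of the 8 mitochondrial tRNA rows that passed in both glucose comparisons, in each library (points, replicates 1 to 3 from left to right; lines are group means; each panel starts at 0 and has its own scale). The 6 heavy-strand tRNAs are lower in both high-glucose groups, and HGV replicate 2 is the highest library for MT-TC (73.5 CPM) and MT-TY (196 CPM).

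Only 5 nuclear genes passed the test without VPA, and they belong to complexes I and II. SDHB, the iron-sulphur subunit of succinate dehydrogenase, had 67.4, 67.6 and 63.4 CPM in LG and 38.7, 44.5 and 44.5 CPM in HG. It fell by 0.61 on the log2 scale (SE 0.127, edgeR adjusted p = 0.00209), whereas SDHA and the membrane anchors SDHC and SDHD did not pass. NDUFAF2, an assembly factor of complex I, had 25.6, 29.7 and 26.1 CPM in LG and 13.8, 17.7 and 18.4 CPM in HG, and fell by 0.68 (SE 0.158, edgeR adjusted p = 0.00435). The accessory subunits NDUFS6, NDUFC2 and NDUFB9 gave log2 fold changes of -0.57, -0.53 (-0.35 without LG replicate 2) and -0.41. Groups did not overlap for any of the 5 genes, which adds no support, because the test picked these genes from the same libraries. The number of nuclear calls ranged from 2 without HG replicate 1 to 12 without LG replicate 3. The calls of NDUFS6, NDUFC2 and NDUFB9 were lost when single libraries were left out, HG replicate 1 in each case and other libraries besides. NDUFB9 shares exon bases with MTSS1 and TATDN1 on the other strand. No row of complex III, IV or V passed.

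High against low glucose was also compared under VPA, in HGV and LGV libraries, which are other libraries than those above. Here 11 of 30 mitochondrial rows (36.7%) passed, 3 higher and 8 lower, and 22 of 88 nuclear rows (25%), 14 higher and 8 lower. Among all 16208 genes tested 40.7% passed, with 21.2% higher and 19.5% lower, so neither share exceeded that of genes at large. Of the mitochondrial rows, 9 passed in both glucose comparisons, and all 9 in the same direction: MT-CO3 and the 8 tRNAs described above. These make up 9 of 12 and 9 of 11 of the 2 lists. Over all genes, those called in both comparisons were 75.8% of the calls without VPA and 46% of those with VPA, and 99.7% of them had the same direction.

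MT-TI had 10.4, 11.4 and 11.4 CPM in LGV and 0.766, 1.54 and 0.441 CPM in HGV, a log2 fold change of -3.57 (SE 0.284, edgeR adjusted p = 1.04e-07). The LGV libraries lay close together and far above all HGV libraries. MT-TL1 changed by -1.91, MT-TD by -1.88, MT-TF by -1.84, MT-TM by -1.43 and MT-TV by -1.07, and the call of MT-TV was lost without HGV replicate 1 (edgeR adjusted p = 0.0757). For the light-strand pair, MT-TC had 10.1, 13.7 and 10.3 CPM in LGV and 21.7, 73.5 and 26.0 CPM in HGV. MT-TY had 25.5, 35.7 and 26.8 CPM in LGV and 63.1, 196 and 75.5 CPM in HGV. HGV replicate 2 lay far above its group for both, yet the other 2 HGV libraries were also above every LGV library. Log2 fold changes were 1.82 for MT-TC and 1.91 for MT-TY with that library, and 1.06 and 1.23 without it, and both calls held. The same library had 33870 CPM of MT-RNR2 and 3133 CPM of MT-RNR1, against at most 26290 and 1783 CPM in the other HGV libraries.

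MT-CO3 had 3069, 3241 and 2687 CPM in LGV and 4408, 5077 and 4335 CPM in HGV, again without overlap (log2 fold change 0.60, SE 0.154, edgeR adjusted p = 0.00478), although the call was lost without LGV replicate 3. The first complex I mRNAs of the heavy strand, MT-ND1 and MT-ND2, gave -0.38 and -0.40 and passed. These calls were lost in 5 and 4 of the 6 fits that left out 1 library. MT-CYB did not pass here, but the ratio of MT-CYB to MT-ND1 reads was 0.797 ± 0.0386 (SD, n = 3) in LGV and 1.28 ± 0.0329 in HGV, without overlap. MT-CO3 to MT-ATP6 was 0.985 ± 0.0179 in LGV and 1.46 ± 0.133 in HGV.

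All 5 nuclear genes that were lower in HG than in LG were also lower in HGV than in LGV. SDHB had 64.8, 78.4 and 79.3 CPM in LGV and 46.3, 54.4 and 50.8 CPM in HGV, a log2 fold change of -0.57 (SE 0.123, edgeR adjusted p = 0.00133). NDUFAF2 changed by -1.05 (SE 0.155, edgeR adjusted p = 5.26e-05), from 24.6, 32.8 and 28.2 CPM to 12.1, 17.1 and 12.4 CPM. NDUFAF3, another assembly factor of complex I, moved the other way. It had 12.9, 9.42 and 11.1 CPM in LGV and 23.0, 27.1 and 28.2 CPM in HGV, and rose by 1.21 (SE 0.147, edgeR adjusted p = 8.37e-06). Without VPA its libraries at 20.9, 9.78 and 19.9 CPM in LG and 21.5, 24.9 and 23.7 CPM in HG did not pass the test, LG replicate 2 being the low one. Exons of NDUFAF3 and DALRD3 overlap on opposite strands. Hepatocyte markers also differed, 4 of 8 being higher in HGV (50%, beside 21.2% of all genes), and their part was not tested. Without VPA 2 of the 8 were higher in HG (25%, beside 12%). Of the 7 assembly factors 5 passed (71.4%, beside 40.7% of all genes), 3 higher and 2 lower. The calls of NDUFAF1, NDUFAF6 and NDUFAF7 were lost when single libraries were left out, and those of NDUFAF2 and NDUFAF3 held. The other genes of this comparison included NDUFV3 (0.67), an accessory subunit of complex I, UQCRQ of complex III (0.53), ATP5S (0.61) and SDHC (0.38), all higher in HGV, and COX6B2, given below. Without HGV replicate 2 the log2 fold changes were 0.33 for UQCRQ and 0.22 for SDHC. The call of ATP5S was lost without LGV replicate 3 and that of SDHC without LGV replicate 1, LGV replicate 3 or HGV replicate 2. Without LGV replicate 3 the nuclear calls fell from 22 to 13.

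With VPA, nearly all calls lay among the nuclear rows. In low glucose (LGV against LG), 0 of 30 mitochondrial rows passed edgeR's test, none had an unadjusted p under 0.05, and DESeq2's Wald test also called 0. Among the 89 nuclear rows 31 (34.8%) passed, 4 higher and 27 lower. Over all 15944 genes 41.6% passed, 21.7% higher and 19.9% lower. In high glucose (HGV against HG), 1 of 30 mitochondrial rows and 28 of 89 nuclear rows (31.5%) passed, the latter with 6 higher and 22 lower. The background was 46.1% of 16188 genes, 25.8% higher and 20.2% lower. The nuclear shares were thus below those of genes at large, with few rows higher. Their median log2 fold changes were -0.18 in low and -0.13 in high glucose, and those of all genes -0.01 and 0.03.

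Most nuclear members are abundant, and genes of at least 10 CPM as a whole had medians of -0.08 and -0.06 with VPA. Of members with at least 10 CPM, 27 of 81 (33.3%) were lower in LGV and 21 of 80 (26.2%) in HGV, beside 27.7% and 27.3% of all genes at that level. Higher were 3.7% and 6.25% of these members, beside 17.6% and 21.4% of the genes. The balance also depends on scaling between libraries. With library size as the only scaling, the median of all genes moved to 0.16 in low and 0.15 in high glucose, and the nuclear calls were 9 higher and 15 lower in low glucose and 15 higher and 12 lower in high glucose. The differences here are therefore relative to the average gene. Hepatocyte markers moved as well: 5 of 8 (62.5%) were lower in LGV than in LG, beside 27.7% of genes with at least 10 CPM. In HGV against HG 1 was lower and 1 higher, 25% called beside 46.1% of all genes. Their sum was 51550 to 58290 CPM in LG, 52590 to 60470 in HG, 39790 to 40750 in LGV and 46690 to 61330 in HGV, and their part in the nuclear result was not tested.

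**Figure D4:**
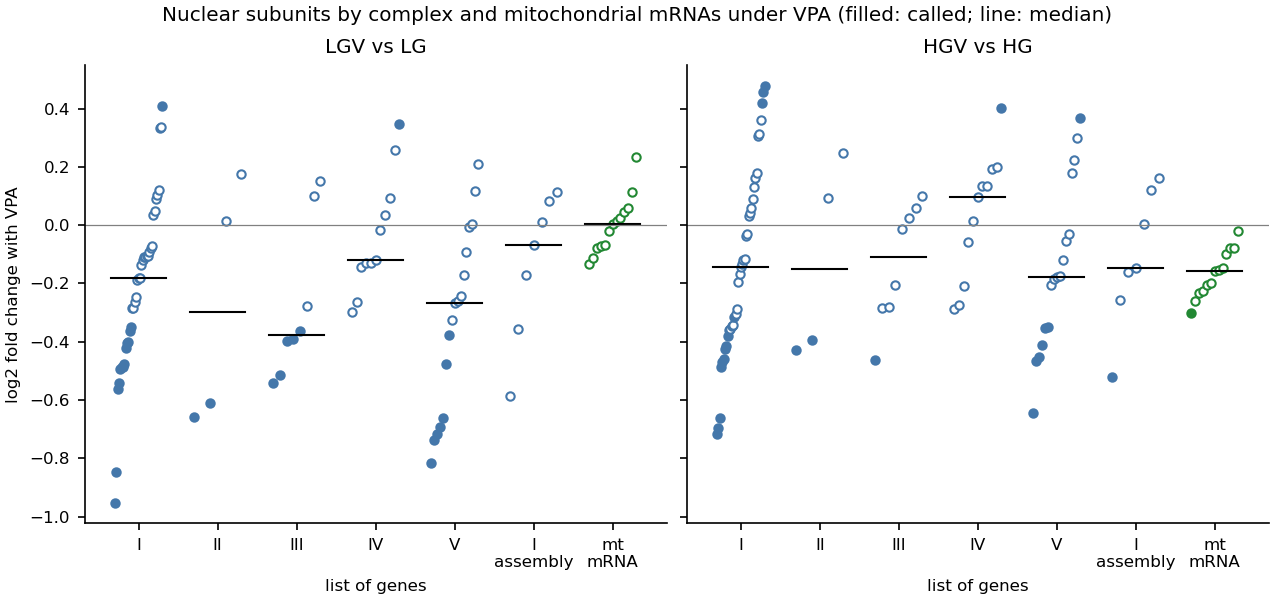
Log2 fold changes with VPA (y axis) of the nuclear subunits by complex, the complex I assembly factors and the 13 mitochondrial mRNAs, in low (left) and high glucose (right); each point is 1 gene, filled where called, and lines are medians. Called genes of complexes I, II, III and V lie mostly below 0, and only 1 mitochondrial mRNA, MT-ND6 in high glucose, is filled.

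Complex I, with 37 of the 89 nuclear rows, held 15 of the 31 nuclear calls in low glucose and 14 of the 28 in high glucose. In low glucose 13 of its subunits fell (35.1%) and 2 rose, and in high glucose 11 fell (29.7%) and 3 rose. Of all genes 19.9% and 20.2% were lower, and of those with at least 10 CPM 27.7% and 27.3%, so that the share in high glucose lay near that of genes at a like level. NDUFB2, an accessory membrane-arm subunit, had 44.2, 48.0 and 46.4 CPM in LG and 23.1, 25.5 and 22.6 CPM in LGV (log2 fold change -0.95, SE 0.119, edgeR adjusted p = 1.82e-05), and changed by -0.66 in high glucose, from 43.4, 49.0 and 51.7 CPM in HG to 27.5, 37.7 and 26.0 CPM in HGV. Neither pair of groups overlapped. NDUFB2 shares exon bases with ADCK2 on its own strand and with BRAF and NDUFB2-AS1 on the other. The antisense row NDUFB2-AS1 itself had only 45 reads over the HG libraries and 20 over the HGV libraries. It passed the filter on low counts there only through the HG libraries, so that its call is no support for a difference. NDUFA8 rose in both media, by 0.33 and 0.42 (0.28 without HGV replicate 2), calls lost in 4 and 2 of 6 such fits, and NDUFV1, which binds NADH and FMN, rose by 0.48 in high glucose.

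In complex II, SDHA, the flavoprotein that oxidises succinate, fell in both media. It had 174, 186 and 164 CPM in LG and 99.0, 112 and 117 CPM in LGV, and 152, 171 and 167 CPM in HG and 125, 133 and 116 CPM in HGV. No VPA library reached the lowest library of its medium without VPA, and the log2 fold changes were -0.66 (SE 0.117, edgeR adjusted p = 0.000385) and -0.39 (SE 0.101, edgeR adjusted p = 0.00669). SDHC fell by 0.61 and 0.43, the second call being lost in 4 of the 6 fits without 1 library. SDHB, which differed between glucose media, gave 0.18 and 0.25 with VPA and passed in neither. Within this 4-subunit complex, then, the subunit called for glucose in both comparisons and the subunits called for VPA in both media were not the same.

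In complex III, 5 of 8 subunits (62.5%) fell in low glucose, beside 27.7% of genes with at least 10 CPM, led by UQCRC2, a core protein (-0.54, SE 0.117, edgeR adjusted p = 0.00181), at 362, 408 and 388 CPM in LG and 251, 261 and 278 CPM in LGV. The calls of UQCRC1 and UQCRC2 held in every fit that left out 1 library, and those of UQCR10, UQCRFS1 and UQCRQ did not. In high glucose only the Rieske iron-sulphur protein UQCRFS1 fell, by 0.46 (12.5% of the subunits, beside 27.3%). Complex IV had no subunit lower in either medium out of 11, and COX6A1, the liver form of subunit VIa, was called higher in both. COX6A1 had 47.5, 52.7 and 43.8 CPM in LG and 52.4, 67.1 and 62.3 CPM in LGV, so that these groups overlapped, and 39.1, 44.02 and 49.9 CPM in HG and 51.7, 73.7 and 50.5 CPM in HGV. Its log2 fold changes were 0.35 and 0.40, the second being 0.21 without HGV replicate 2, and its call was lost in 4 of the 6 fits without 1 library in low glucose and 3 of 6 in high glucose. In complex V, 7 of 17 rows (41.2%) fell in low glucose and 6 (35.3%) in high glucose, beside the same 27.7% and 27.3%. ATP5S and ATP5SL, which are not structural subunits, were among them in both media, so that the shares of the structural subunits alone are lower. In high glucose only the falls of ATP5G2 and ATP5SL held in every fit that left out 1 library. ATP5G2, which encodes the membrane ring subunit c, had 153, 135 and 127 CPM in LG and 76.0, 94.5 and 79.9 CPM in LGV. In high glucose ATP5G2 had 135, 149 and 158 CPM in HG and 81.8, 105 and 96.6 CPM in HGV. It fell by 0.72 (SE 0.125, edgeR adjusted p = 0.000336) and 0.64 (SE 0.115, edgeR adjusted p = 0.0006). ATP5G3, another gene for the same subunit c, was higher by 0.37 in high glucose, a call that was lost without HG replicate 1, HG replicate 2 or HGV replicate 2 (0.20 without the last).

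Counted over both media, 22 nuclear rows passed with VPA in each, all in the same direction, which is 22 of 31 and 22 of 28. Over all genes, those called in both media were 77.4% of the calls in low glucose and 70.3% of those in high glucose, and 99.7% of them had the same direction, so that this overlap is near that of genes at large. Besides those above they included NDUFS1, NDUFS3, NDUFS8, ATP5A1, ATP5F1 and ATP5J2, all lower. The 2 VPA comparisons share no library. Of the 31 and 28 calls, 19 and 11 held in every fit that left out 1 library. All these counts include COX6B2, and the 28 also include NDUFB2-AS1. Both rows passed the filter on low counts only through the libraries where they were high, so that their calls are no support for a difference. The number of calls was 20 without LGV replicate 3 in low glucose, and 17 without HG replicate 3 and 18 without HGV replicate 1 in high glucose.

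**Figure D5:**
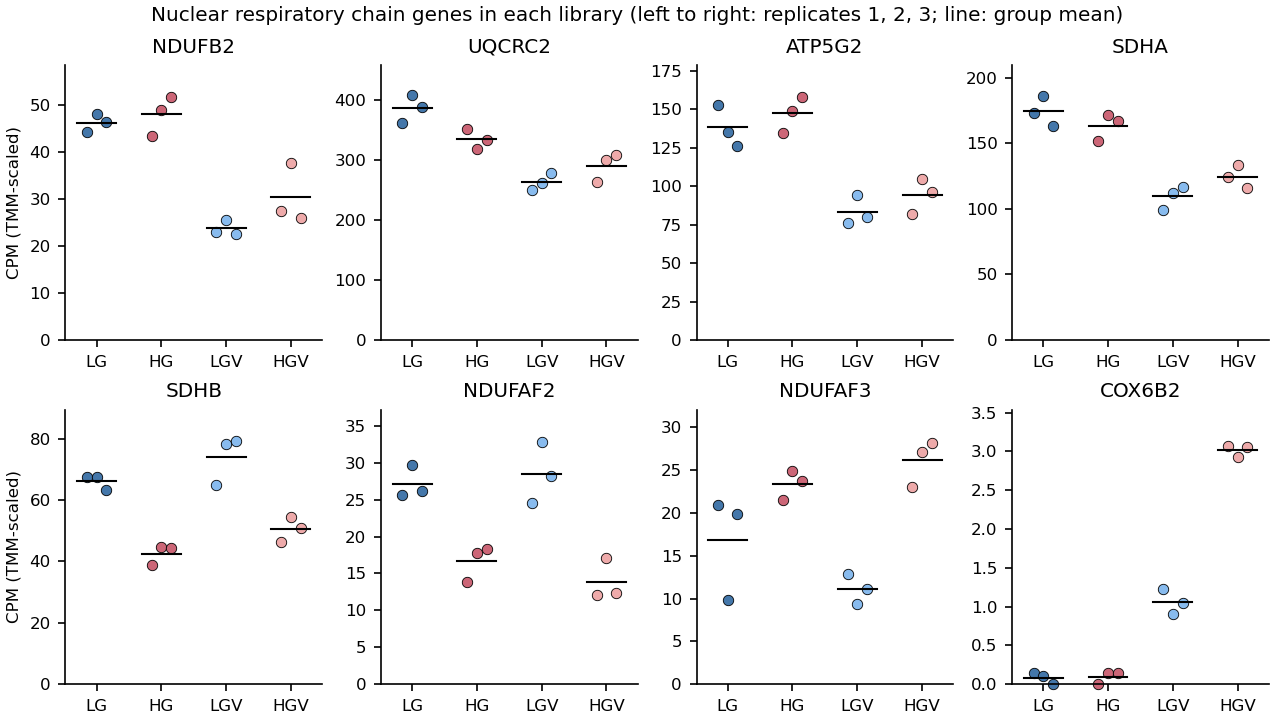
CPM of 8 nuclear genes in each library (points, replicates 1 to 3 from left to right; lines are group means; each panel starts at 0 and has its own scale). NDUFB2, UQCRC2, ATP5G2 and SDHA have lower means with VPA in both media (UQCRC2 did not pass the test in high glucose), SDHB and NDUFAF2 are lower in high glucose with and without VPA, and COX6B2 reaches 0.909 to 3.07 CPM only in VPA libraries.

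COX6B2, an isoform of complex IV subunit VIb whose expression is best known from testis, was detected almost only with VPA. It had 8 reads over the 3 LG libraries and 10 over the 3 HG libraries, against 108 in LGV and 327 in HGV. In CPM the VPA libraries had 1.23, 0.909 and 1.04 in LGV and 3.07, 2.93 and 3.06 in HGV, and no library without VPA exceeded 0.15. The row passed the filter on low counts in the VPA comparisons only through the VPA libraries, so that these values are a description and its calls, counted among the 4 and 6 higher nuclear rows, are no support for a difference. Between HGV and LGV, both above the filter, COX6B2 was higher in HGV by 1.49 (SE 0.241, edgeR adjusted p = 0.000123). Its level stayed far below that of the subunits named above. The other restricted or related genes, NDUFA4L2 and COX7A2L, passed in none of the 4 comparisons, and NDUFA4L2 lay between 1.13 and 2.17 CPM in every library.

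Among the 13 mitochondrial mRNAs, 0 were called with VPA in low glucose, beside 41.6% of all genes, and 1 (7.69%) in high glucose, beside 46.1%. In low glucose their log2 fold changes lay between -0.13 and 0.23 with a median of 0.00. In high glucose all 13 were negative, between -0.30 and -0.02, and MT-ND6 passed. The median of the 13 was -0.16, beside -0.13 for the nuclear rows, 0.025 for all genes and -0.06 for genes of at least 10 CPM. MT-ND6 had 1479, 1463 and 1475 CPM in HG and 1271, 1153 and 1156 CPM in HGV, without overlap (-0.30, SE 0.104, edgeR adjusted p = 0.0302). That call was lost without HG replicate 2, HG replicate 3 or HGV replicate 3. DESeq2's Wald test called 5 mitochondrial rows in high glucose, all lower. No tRNA passed with VPA in either medium, and the MT-TI libraries given above overlapped between LG and LGV and between HG and HGV.

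The interaction of glucose and VPA, which asks whether the VPA difference itself differed between media, was called for 0 of 119 members by edgeR's quasi-likelihood test and for 0 by DESeq2's Wald test. Among all 16389 genes edgeR called 7, which is 0.0427%, and DESeq2 called 162. Without LG replicate 2 edgeR called 217 genes, among them 1 member, NDUFAF3. An unadjusted p under 0.05 was found for 7 nuclear and 0 mitochondrial members, and the smallest adjusted p was 0.303 for NDUFAF3 and 0.504 for MT-ND6. A simulated interaction of 2-fold was recovered for 52.1% of changed genes, so that smaller differences between media would often be missed.

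The promoters of nuclear members were searched for 2 motifs known from respiratory chain genes. For 73 of the 89 nuclear rows a RefSeq promoter (GRCh38.p14) was found by symbol, and the 250 bases before the start were searched on both strands. The motif of NRF1 (GCGCA, any base, then GCGC), a known activator of respiratory chain genes, was in 13 of them (17.8%), against 5.53% of 27305 promoters. CCGGAAG, the core site of the GABPA family, was in 17 (23.3%), against 8.82%. Of the 15 matched genes lower with VPA in both media, 2 held the NRF1 motif and 3 the GABPA motif, and of the other 58 matched genes 11 and 14 did. These genes are too few to compare the shares, and a part of either motif in the VPA difference was not tested. The 27305 promoters were not matched to the members in expression or base composition. A match says only that these letters are present. Shown are SDHA, 1 of those 2 genes with the NRF1 motif, at chr5:218070-218319 on the plus strand with 4 NRF1 motifs in capitals, and COX6B2, at chr19:55354720-55354969 on the minus strand with none.
SDHA: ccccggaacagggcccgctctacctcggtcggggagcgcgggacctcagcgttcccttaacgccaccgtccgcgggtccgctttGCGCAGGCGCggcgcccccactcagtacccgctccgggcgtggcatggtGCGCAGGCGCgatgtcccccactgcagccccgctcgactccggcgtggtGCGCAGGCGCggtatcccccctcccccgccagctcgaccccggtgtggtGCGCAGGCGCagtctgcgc
COX6B2: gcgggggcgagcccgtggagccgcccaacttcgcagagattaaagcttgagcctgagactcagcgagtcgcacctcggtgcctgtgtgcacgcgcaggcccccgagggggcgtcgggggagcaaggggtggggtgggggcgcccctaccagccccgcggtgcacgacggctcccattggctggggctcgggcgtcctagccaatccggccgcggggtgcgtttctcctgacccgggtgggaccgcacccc
The windows hold 35 and 26 CpG, and 75.2% and 72.8% of their bases are G or C.

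Genes around the chain were read from fixed lists of genes outside the rule. Among 19 genes of mitochondrial RNA processing and stability, 0 were higher and 4 (21.1%) lower in HG. Of all genes 24.7% were called and 12.7% were lower. The 4 were the RNA helicase SUPV3L1 (-0.75), FASTKD5 (-0.74), which acts in maturation of mitochondrial mRNAs, SLIRP (-0.56) and its partner LRPPRC (-0.43), which stabilise them. Under VPA 10 of the 19 (52.6%) passed for glucose, beside 40.7% of all genes, 2 higher and 8 lower, with SUPV3L1 at -0.83 and FASTKD5 at -1.02. Group means of SUPV3L1 were 47.8 CPM in LG, 27.9 in HG, 45.97 in LGV and 26.2 in HGV. Of 15 genes of mitochondrial DNA transcription and replication, 3 (20%) were called, all higher in HG, beside 24.7% of all genes called and 12% higher. They were MTERFD1 (0.98), MTERFD3 (0.74) and the nuclease MGME1 (0.43). Under VPA 7 of the 15 (46.7%, beside 40.7% of all genes) passed for glucose, 3 higher and 4 lower. With VPA, 3 of these 15 were lower and 1 higher in low glucose (26.7% called) and 5 lower in high glucose (33.3%), beside 41.6% and 46.1% of all genes, the mitochondrial RNA polymerase POLRMT being lower in both (-0.48 and -0.46).

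Of 9 regulators of nuclear respiratory genes, 1 was higher with VPA in each medium, with 2 lower in low and 4 lower in high glucose. These are 33.3% and 55.6% called, beside 41.6% and 46.1% of all genes. The coactivator PPARGC1B rose by 2.40 in low and 2.21 in high glucose from group means of 1.14 and 1.60 CPM. The related PPRC1 fell by 0.91 and 1.04, and GABPB1 changed by -0.36 and -0.70. In HG the nuclear receptor ESRRA (-0.76) and the coactivator PPARGC1A (-0.41) were lower, and GABPB1 was higher (0.39), 33.3% called beside 24.7%. Under VPA 4 of the 9 (44.4%) were lower in high glucose and 0 higher, beside 40.7% of all genes called and 19.5% lower. Among these 4 were ESRRA (-0.665), PPARGC1A (-0.67) and YY1 (-0.605). Of 34 assembly factors outside the rule, 13 were lower and 3 higher with VPA in low glucose, and 11 and 4 in high glucose, which is 47.1% and 44.1% called and near the 41.6% and 46.1% of all genes. The copper chaperone COX19 fell by 1.04 and 1.39, ECSIT of complex I assembly by 1.11 and 0.84, and UQCC2 of complex III assembly by 1.33 and 0.59. UQCC2 was higher in high glucose, by 0.58 without and 1.29 with VPA. Of 8 other respiratory chain genes, 2 were lower and 1 higher with VPA in each medium, 37.5% called beside the same 41.6% and 46.1%. CYC1 (cytochrome c1) fell by 0.77 and 0.43 and ETFB, of the electron transfer flavoprotein, by 0.44 and 0.56, and CYCS (cytochrome c) rose by 0.44 and 0.54.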

How the data were processed

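The deposited table holds raw read counts per gene, made by the authors from 50 nt single-end reads of poly(A)-selected RNA aligned to GRCh37 with STAR and counted with featureCounts, keeping genes with a mean of at least 10 reads and alignments of mapping quality 10 or more. bcl2fastq 2.17.1.14 is named in the submitters' processing notes. Members and gene lists were chosen with earlier results of these data known. Each comparison was fitted on its own 6 libraries, leaving out genes that averaged under 10 reads in them, with edgeR 4.0.16 (R 4.3.3, TMM scaling, glmQLFTest), and p-values were adjusted by Benjamini-Hochberg over all genes tested. The interaction was fitted on all 12 libraries. CPM are TMM-scaled, and ratios are of raw counts. On simulated counts with 197 genes changed by 2-fold, the HG against LG fit recovered 147 and 7 of its 154 calls were false. Positions and exon lengths came from GENCODE annotation of GRCh37. Alternatives were other scalings, filters, a replicate block, 1 fit of all libraries, DESeq2 1.42.0 and leaving out each library. Named genes were all rRNAs, MT-ND6, the mRNAs with the largest and smallest change, the 3 tRNAs of smallest p per comparison, the called nuclear gene of smallest p per complex and direction, members changed by at least 1 on the log2 scale, the restricted isoforms and up to 3 called genes per outside list; further called members and ATP5B, SDHB with VPA and MT-CYB ratios were named after their values were seen. No replicate pair of a group agreed within sampling noise (chi-square per degree of freedom 10.2 to 64.3). The values of 1 nuclear member are not reported here.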

Additional observations from a re-analysis of the deposited data

How the results depend on the processing

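Of the recounts of called members under the alternatives, 131 stayed within 1.5 times the reported count and 19 did not. Leaving out single libraries gave 2 to 12 nuclear calls for HG against LG (2 without HG replicate 1, 3 without LG replicate 1 or HG replicate 2, 12 without LG replicate 3), 20 to 33 for LGV against LG (20 without LGV replicate 3), 17 to 34 for HGV against HG (17 without HG replicate 3, 18 without HGV replicate 1), 13 to 25 for HGV against LGV (13 without LGV replicate 3) and 0 to 1 for the interaction (1 without LG replicate 2). Mitochondrial calls were 9 to 14, 0 to 1 (1 without LG replicate 2 or LGV replicate 3), 0 to 2 (0 without HG replicate 2 or HG replicate 3, 2 without HG replicate 1 or HGV replicate 2) and 8 to 11 in the same order of comparisons. For HGV against HG, 1 fit of all libraries called 0 mitochondrial rows and DESeq2's Wald test 5. With library size as the only scaling, the median of all genes was 0.11 for HG against LG, 1 mitochondrial row (MT-RNR2, 0.46) was called for LGV against LG, and the 1 call for HGV against HG was MT-RNR2 (0.46), not MT-ND6. Among single genes, 237 values lost and 21 gained a call. The causes were not tested.

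All reversals concerned values that were not called, mostly near 0. Without single libraries, HG against LG ranged from -0.023 to 0.084 for MT-CO2, -0.059 to 0.189 for MT-RNR1 and -0.10 to 0.17 for NDUFA4L2. LGV against LG ranged from -0.066 to 0.087 for MT-ATP6, -0.059 to 0.182 for MT-ND6 and -0.505 to 0.091 for MT-TY. HGV against HG ranged from -0.28 to 0.14 for MT-ND3, -0.14 to 0.32 for MT-RNR1, -0.26 to 0.80 for MT-TC and -0.22 to 0.74 for MT-TY, the lowest of the last 3 without HGV replicate 2. HGV against LGV ranged from -0.067 to 0.081 for MT-ND4L, -0.308 to 0.16 for MT-RNR1 and -0.143 to 0.059 for NDUFA4L2. Under other settings, NDUFA4L2 gave 0.082 (library size only), 0.001 (scaling without the mitochondrial rows), 0.005 (no filter) and 0.002 (1 fit of all libraries) for HG against LG, and 0.022 (library size only) for HGV against LGV. MT-ATP6 for LGV against LG gave -0.001 with DESeq2's size factors and its Wald test, -0.002 without a filter and -0.005 in 1 fit of all libraries. MT-ND3 for HGV against HG gave 0.097 with library size only, and MT-ND4L for HGV against LGV -0.013 with DESeq2's size factors and its Wald test.

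Replicate numbers recur in every group, but deviations of same-numbered libraries correlated from -0.201 to 0.295, and not above 0.1 in every pair, so the numbers were not taken to pair libraries. A replicate block gave 6, 33, 39 and 25 nuclear and 12, 0, 0 and 14 mitochondrial calls for HG against LG, LGV against LG, HGV against HG and HGV against LGV, and 0 for the interaction. For HGV against LGV the block gave -0.001 for MT-ND4L and -0.025 for MT-RNR1.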
